A study of Mus musculus with 10 samples.

Results

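The genes of the interferon response and of antigen presentation by major histocompatibility complex (MHC) class I molecules were examined in cultures of adult mouse neural stem and progenitor cells (NSC/NPCs), which were taken from the subependymal zone. The set was a list of 42 gene symbols, each looked up among the 48795 genes of the count table, and all 42 were found. It holds 4 MHC class I chains, 3 genes of peptide transport and loading, 5 of the immunoproteasome and its activator PA28, 5 transcription factors, 4 RNA sensors, 7 genes of the ISG15 system and other E3 ligases and PARPs, 11 antiviral effectors and 3 guanylate-binding proteins (GBPs).

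The 10 RNA-seq libraries came from NSC/NPCs of mice of 10 weeks of age, WT or labelled p27KO, the latter carrying a mutated Cdkn1b (p27) allele on a C57BL/6J background. Proliferating cells (PRO) were neurospheres grown for 3 DIV (days in vitro) with 20 ng/ml of EGF and 10 ng/ml of FGF, with 3 WT and 2 p27KO libraries. Cells at the onset of differentiation (DIFF, 2 + 1 DIV) were seeded at 40000 cells per cm2 on Matrigel, kept for 2 days with FGF, and then for 24 h without mitogens and with 2% serum, again with 3 WT and 2 p27KO libraries. The stages therefore differ in mitogens, serum and attachment together, and these cannot be told apart. The methods call the libraries of a group biological replicates, without saying which mouse or culture each came from, so that p-values measure the spread between these libraries.

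Type I interferons (IFN-α and IFN-β) signal through the receptor IFNAR and the kinases JAK1 and TYK2 to a transcription factor complex that holds STAT2 and IRF9 and binds the interferon-stimulated response element (ISRE) of its target genes. IFN-γ signals through IFNGR to factors that bind the gamma-activated site (GAS). MHC class I molecules present peptides to CD8+ T cells: proteasomes cut the peptides, the TAP transporter carries them into the endoplasmic reticulum, tapasin helps to load them, and the class I heavy chain reaches the cell surface with β2-microglobulin.

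Windows from 250 bases before to 50 bases after the annotated start were given by RefSeq (GRCm38.p6) for 35 of the 42 genes, and were searched on both strands for the core of the ISRE, a pair of GAAA copies separated by any 2 bases, and for the GAS, TTCNNNGAA. The ISRE core reads GAAA on one strand and TTTC on the other, and copies of either motif may overlap. The ISRE letters were found in 17 of the 35 genes (48.6%) and in 3.44% of the 32851 mouse promoter windows. The GAS letters were found in 8 of 35 genes (22.9%) and in 8.30% of all windows. H2-K1, Psme2, Irf1, Irf9, Ifit2 and Gbp3 had 2 windows each, and a gene was counted if either held the letters. A share of genes is thus set beside a share of windows, and these units are not the same. Stretches around the match are printed below from 5′ to 3′ on the strand of the gene, with the match in capitals, for genes described further on. The 6 first genes were named by rule (the MHC class I heavy chain gene H2-T23, B2m, Psme1, Eif2ak2, Ddx58 and Gbp3), and the last 3 (Ifit3, Isg15 and Ifitm3) were chosen after their values were seen, as Isg15 holds overlapping copies and Ifit3 and Ifitm3 separate ones. In GRCm38 they lie at chr17:36032796-36032845 (minus strand), chr2:122147528-122147577 (plus), chr14:55578493-55578522 (plus), chr17:78882535-78882564 (minus), chr4:40239804-40239833 (minus), chr3:142559979-142560034 (plus), chr19:34583353-34583436 (plus), chr4:156200855-156200916 (minus) and chr7:141010716-141010745 (minus), in the order given. The matches began at positions -124 (H2-T23), -139 (B2m), 10 (Psme1), 19 (Eif2ak2), 3 (Ddx58), -45 and -39 (Gbp3), -156 and -122 (Ifit3), -78, -72 and -66 (Isg15) and 3 and 20 (Ifitm3), where -1 is the last base before the RefSeq start, which can differ from the GENCODE gene boundaries given further on.
H2-T23: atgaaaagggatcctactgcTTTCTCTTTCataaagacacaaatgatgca
B2m: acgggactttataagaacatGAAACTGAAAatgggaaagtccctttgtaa
Psme1: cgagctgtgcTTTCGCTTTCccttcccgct
Eif2ak2: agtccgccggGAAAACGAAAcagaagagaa
Ddx58: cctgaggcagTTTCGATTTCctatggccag
Gbp3: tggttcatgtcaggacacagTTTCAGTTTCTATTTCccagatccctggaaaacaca
Ifit3: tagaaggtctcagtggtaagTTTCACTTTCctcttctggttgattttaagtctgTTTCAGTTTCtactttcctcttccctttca
Isg15: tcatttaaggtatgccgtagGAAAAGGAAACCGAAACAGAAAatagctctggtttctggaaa
Ifitm3: cagGAAAAGGAAActtctgaGAAACCGAAA

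The libraries held 19190068 to 25291674 estimated counts, and 1 library of WT PRO was the shallowest. Of the labels, Cdkn1b itself did not separate the genotypes in PRO, with 102.7 to 112.5 CPM (counts scaled to a common library total) in WT and 90.7 to 113.8 CPM in the libraries labelled p27KO, and it was lower in the latter in DIFF, with 137.2 to 140.2 CPM against 205.2 to 208.6 CPM. The part of the gene that the allele lacks is not given in the sources used here. Xist was at 1.16 to 2.57 CPM in the WT libraries and at 2258 to 3595 CPM in those labelled p27KO, and 4 Y-linked genes summed to 188.6 to 533.2 CPM and 0.148 to 0.585 CPM, so that genotype and sex cannot be told apart. Neural stem cell markers summed to 7508 to 9266 CPM. Single markers on this list were not constant, with log2 fold changes from PRO to DIFF of -3.16 to 7.51 in WT and -3.05 to 7.13 in p27KO. Of 13 microglial genes, C1qa, C1qb, C1qc, Tyrobp and Trem2 had 0 counts in every library, and all 13 summed to 0.238 to 0.836 CPM. Of 10 endothelial genes, Cdh5 and Cldn5 were at 0, and the list summed to 14.8 to 51.7 CPM in WT PRO, 6.48 to 14.0 CPM in WT DIFF, 23.8 to 37.1 CPM in p27KO PRO and 7.45 to 14.6 CPM in p27KO DIFF. Lymphocyte markers summed to 0.124 to 0.495 CPM, and pericyte and fibroblast markers to 56.9 to 153.4 CPM. Of the 10 pericyte and fibroblast genes, 2 passed the filter given below and changed in opposite directions. Their log2 fold changes from PRO to DIFF were -1.75 and 4.50 in WT and -1.97 and 6.15 in p27KO. The part of endothelial and pericyte genes in the results that follow was not tested.

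Per length of transcript, the set spanned 3 orders of magnitude in WT neurospheres. In TPM, which are counts divided by the length of the union of annotated exons and scaled to a common total, 14 of the 42 genes were below 1 TPM in WT PRO, 15 lay between 1 and 10 TPM and 13 were above 10 TPM. B2m, which encodes β2-microglobulin, led with a mean of 207 TPM in PRO and 272.4 TPM in DIFF. Ifitm2, an antiviral membrane protein gene, followed at both stages with 75.6 and 118.6 TPM. Its paralogue Ifitm3 came next in PRO with 47.6 TPM, and in DIFF, with 53.4 TPM, it lay just below Tapbp (58.7 TPM) and Ifi27 (58.5 TPM). The lowest in PRO was Psmb8, an inducible proteasome subunit, with 0.149 TPM. Isg15, a ubiquitin-like modifier often used to read out an interferon response, had between 0 and 9 counts a library, the highest in 1 library of WT DIFF.

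**Figure D1:**
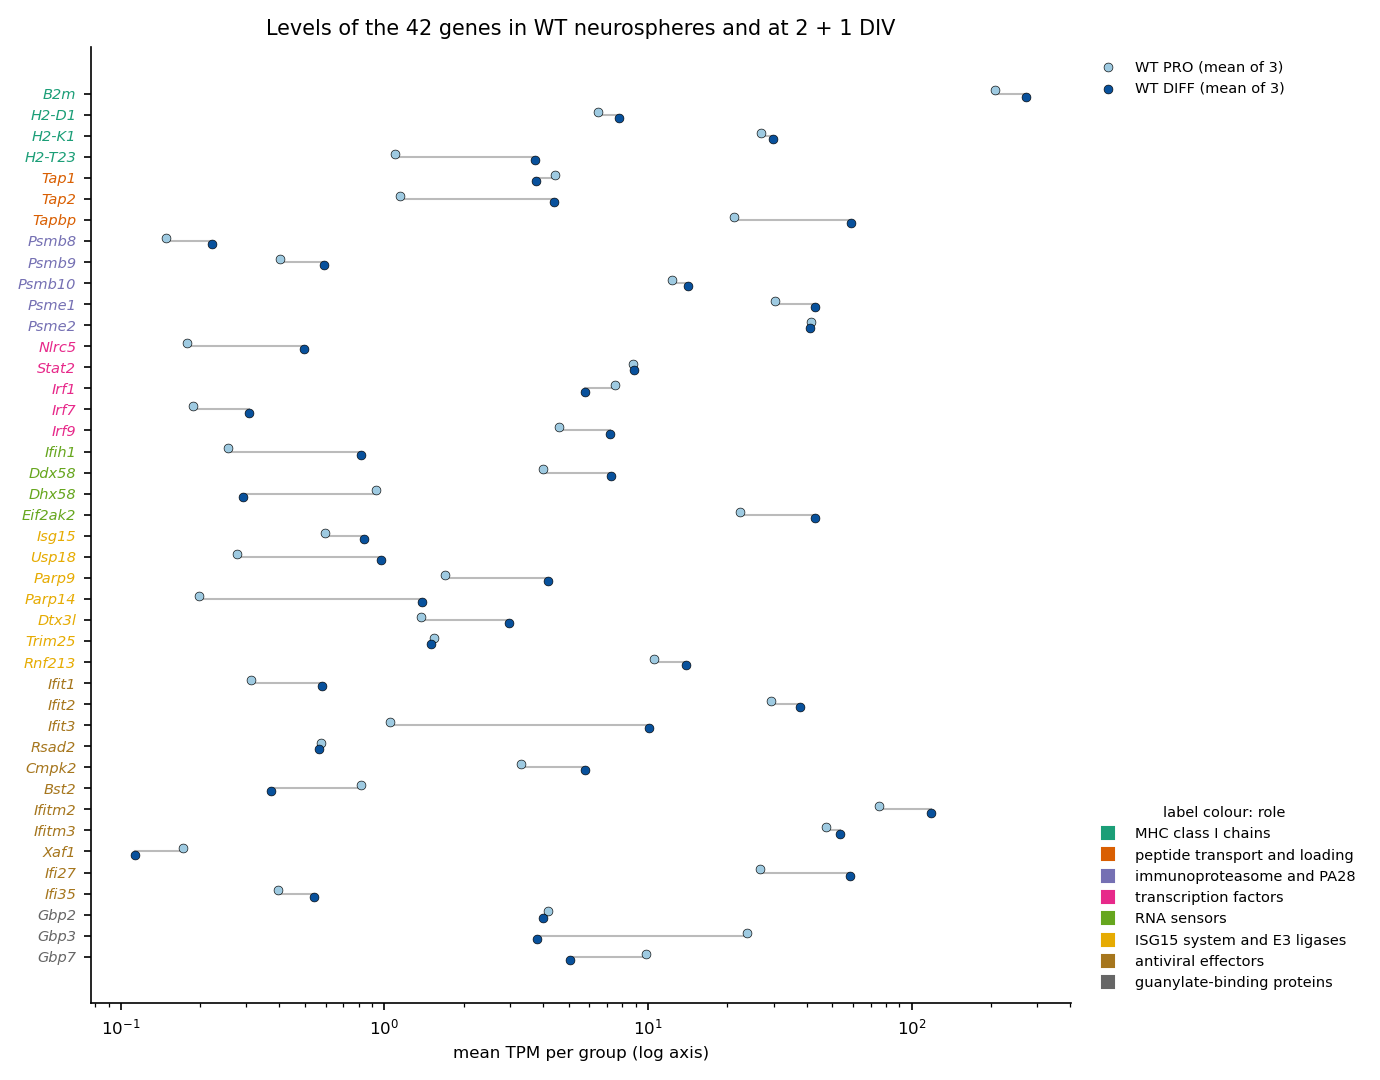
Mean level per length (TPM, log axis) of the 42 genes in WT PRO and WT DIFF, 3 libraries each, with gene labels coloured by role. B2m sits highest at 207 and 272.4 TPM, and 14 genes lie below 1 TPM in PRO.

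A gene was tested if no more than 3 of the 10 libraries fell below 1 CPM, a filter that 12859 genes in all and 28 of the 42 passed. A gene at 1 CPM or more in one stage only has 5 low libraries and cannot pass. The 14 that did not pass were Psmb8, Psmb9, Nlrc5, Irf7, Ifih1, Dhx58, Isg15, Usp18, Ifit1, Ifit3, Rsad2, Bst2, Xaf1 and Ifi35, of which 7 were below 1 CPM in every library. None of the 42 was without counts.

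From PRO to DIFF in WT, 13 of the 28 genes tested rose (UP) and 3 fell (DOWN), by edgeR's quasi-likelihood test with an adjusted p under 0.05. Of all genes tested, 33.5% were UP and 33.9% DOWN in this comparison, beside 46.4% and 10.7% of the 28. In the p27KO libraries 9 were UP and 2 DOWN (32.1% and 7.14%), beside 27.5% UP and 30.2% DOWN over all genes. The 9 and the 2 were also UP and DOWN in WT, and no gene was called in p27KO alone. B2m, Psme1, Irf9 and Ifi27 (UP) and Gbp7 (DOWN) were called in WT only, a difference between the genotypes that the interaction did not call for any of them. All 3 WT DIFF libraries were above all 3 WT PRO libraries in 15 of the 28 genes and below them in 3 (36.3% and 35.6% of all genes), and in p27KO this was so for 14 and 5 (40% and 39.8%). Leaving out 1 library at a time, the count DOWN in WT was 1 without WT PRO replicate 1 or 2 or WT DIFF replicate 3, and 2 or 3 otherwise. In p27KO the count UP was 6 without p27KO PRO replicate 2 or p27KO DIFF replicate 1 and 8 or 9 otherwise, and the count DOWN 1 without p27KO DIFF replicate 2, 3 without p27KO PRO replicate 1 or 2 or WT DIFF replicate 2, and 2 otherwise. The median log2 fold change of the 28 was 0.34 in WT and 0.21 in p27KO, and that of all genes -0.0019 and -0.029. In these bulk samples fewer cells of a type and less RNA per cell cannot be told apart.

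**Figure D2:**
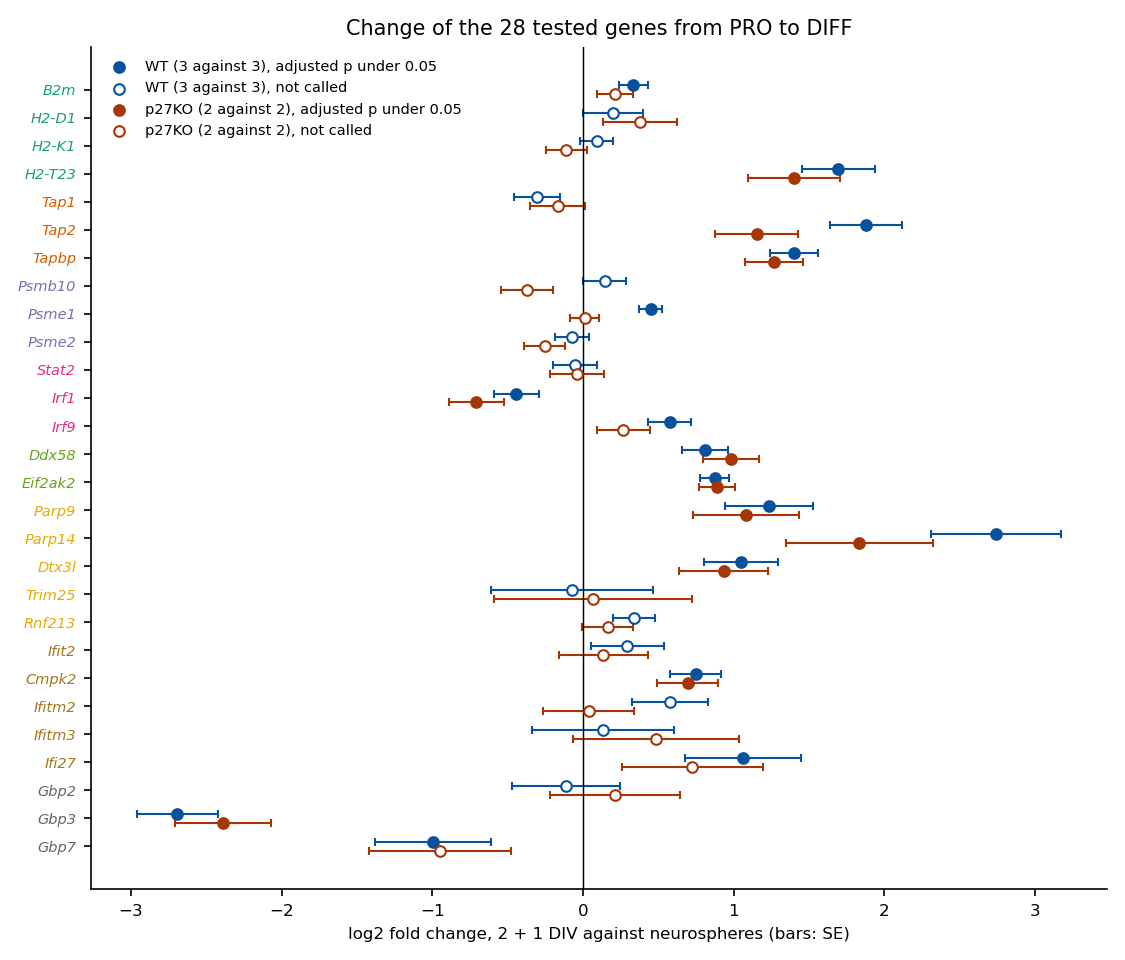
Fitted log2 fold change from PRO to DIFF (± SE) of the 28 genes tested, in WT (blue) and p27KO (brown), with filled points where the adjusted p is under 0.05. Parp14 lies farthest to the right in both genotypes (2.74 in WT, 1.83 in p27KO) and Gbp3 farthest to the left (-2.69 and -2.39).

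Among the 4 MHC class I chains, 2 of 4 were UP in WT (H2-T23 and B2m) and 1 in p27KO. H2-T23 (chr17:36029773-36032855), a non-classical heavy chain recognised by receptors of natural killer cells, had 0.730, 1.16 and 1.15 CPM in WT PRO and 3.51, 3.03 and 3.48 CPM in WT DIFF. In p27KO it had 0.950 and 0.738 CPM in PRO and 2.62 and 1.93 CPM in DIFF, so that every DIFF library was above every PRO library. The libraries of H2-T23 below 1 CPM were all PRO ones, so that it passed the filter in part through DIFF, where it is high. Its p-values are therefore no separate support for a change. The change was 3.23-fold in WT (log2 1.69 ± 0.24, adjusted p = 0.00017 in edgeR) and 2.64-fold in p27KO (1.40 ± 0.31, adjusted p = 0.00328). Of its exons, 14.5% of 50-base windows occur in another gene, so that its counts rest in part on how shared reads were split. B2m (chr2:122147686-122153083) had 59.5, 61.5 and 50.3 CPM in WT PRO and 72.7, 76.1 and 68.6 CPM in WT DIFF, and in p27KO 58.3 and 62.7 CPM and then 74.7 and 67.9 CPM. Stages did not overlap in either genotype, but the change was small, with a log2 fold change of 0.33 ± 0.10 in WT (adjusted p = 0.0126 in edgeR, and 0.0627 when no gene was filtered) and 0.21 ± 0.12 in p27KO (adjusted p = 0.158). The classical heavy chain H2-K1 (chr17:33996017-34000347) had 26.1, 27.6 and 22.04 CPM in WT PRO and 27.1, 27.4 and 26.8 CPM in WT DIFF, and stages overlapped. Its log2 fold change was 0.09 ± 0.11 (adjusted p = 0.486), and that of the other classical chain, H2-D1, was 0.20 ± 0.20 (adjusted p = 0.403).

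Peptide transport and loading had 2 of 3 genes UP in both genotypes. Tapbp (chr17:33915899-33929292), which encodes tapasin, had 25.3, 26.96 and 21.7 CPM in WT PRO and 82.4, 59.1 and 55.7 CPM in WT DIFF, and in p27KO 21.2 and 25.7 CPM and then 54.2 and 60.8 CPM. All 5 DIFF libraries lay above all 5 PRO libraries. The change was 2.64-fold in WT (log2 1.40 ± 0.16, adjusted p = 3.42e-05 in edgeR) and 2.41-fold in p27KO (1.27 ± 0.19, adjusted p = 0.000399). Tap2 (chr17:34203527-34216321), a TAP transporter subunit, had 1.41, 1.40 and 1.38 CPM in WT PRO and 4.94, 6.05 and 4.51 CPM in WT DIFF. The p27KO libraries had 2.23 and 3.20 CPM in PRO, above the WT ones, and 7.18 and 5.08 CPM in DIFF, which overlapped with WT. Tap2 rose 3.67-fold in WT (log2 1.88 ± 0.24, adjusted p = 7.27e-05) and 2.22-fold in p27KO (1.15 ± 0.27, adjusted p = 0.00527, and 0.0519 without p27KO DIFF replicate 1). The other TAP subunit gene, Tap1 (chr17:34187553-34197225), had 8.65, 7.70 and 7.15 CPM in WT PRO and 5.65, 6.84 and 6.60 CPM in WT DIFF, with a log2 fold change of -0.31 ± 0.15 (adjusted p = 0.0975). The subunits of the same transporter thus had fitted changes of opposite sign, of which that of Tap2 passed the test. Tap1 overlaps exons of Psmb9, and Tap2 those of Gm15821 and Gm20496, on the other strand. Tapbp overlaps exons of Zbtb22 on the same strand and of Gm19412 on the other, and 23.2% of its 50-base windows occur in another gene. How the counting treated strand is not given in the sources used here.

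The proteasome genes of the set moved little. PA28 opens the proteasome, and of its subunit genes Psme1 (chr14:55578123-55581529) had 20.8, 21.7 and 21.8 CPM in WT PRO and 30.5, 28.8 and 29.1 CPM in WT DIFF. In p27KO it had 24.95 and 23.8 CPM and then 25.2 and 24.7 CPM, between the WT stages at both. It rose 1.36-fold in WT (log2 0.45 ± 0.08, adjusted p = 0.000536 in edgeR), and its p27KO value was 0.01 ± 0.09 (adjusted p = 0.932). The difference between these changes was -0.44 ± 0.12 (adjusted p = 0.361). Psme2 had 23.3, 21.8 and 25.4 CPM in WT PRO and 24.3, 20.3 and 22.9 CPM in WT DIFF (log2 fold change -0.07 ± 0.11, adjusted p = 0.584), and 28.3% of its windows are shared with Psme2b. Of the 3 inducible catalytic subunits, Psmb10 passed the filter, with a log2 fold change of 0.14 ± 0.14 in WT (adjusted p = 0.386) and -0.37 ± 0.17 in p27KO (adjusted p = 0.0921). Summed per length, Psmb8, Psmb9 and Psmb10 were at 12.9 ± 1.09 TPM (SD) in WT PRO and 15.03 ± 0.806 TPM in WT DIFF, and at 15.1 ± 1.22 TPM and 13.0 ± 0.743 TPM in p27KO (n = 3 and 2 a stage). Their constitutive counterparts Psmb5, Psmb6 and Psmb7 summed to 529.5 ± 17.6 TPM and 359.8 ± 42.5 TPM in WT and to 479.3 ± 40.4 TPM and 339.1 ± 9.24 TPM in p27KO. The inducible sum was therefore 2.43% of the constitutive one in WT PRO and 4.20% in WT DIFF, and 3.17% and 3.84% in p27KO. Most of the inducible sum was Psmb10, with a mean of 12.3 TPM in WT PRO. Psmb8 and Psmb9, which did not pass the filter, had 0.149 and 0.403 TPM there.

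Of the 5 transcription factors, Irf9 was UP and Irf1 DOWN in WT, and Irf1 was also DOWN in p27KO. Irf9 (chr14:55603571-55610030), the DNA-binding part of the complex that binds the ISRE, had 9.28, 7.62 and 6.92 CPM in WT PRO and 12.8, 11.2 and 11.7 CPM in WT DIFF, and in p27KO 6.94 and 8.21 CPM and then 8.999 and 9.58 CPM. Its log2 fold change was 0.57 ± 0.14 in WT (adjusted p = 0.0052 in edgeR) and 0.27 ± 0.18 in p27KO (adjusted p = 0.217). Irf1 (chr11:53770014-53778374), an activator of MHC class I and other IFN-γ targets, had 11.2, 9.81 and 7.79 CPM in WT PRO and 7.68, 6.76 and 6.92 CPM in WT DIFF. In p27KO it had 11.2 and 10.6 CPM and then 7.06 and 6.48 CPM, so that stages did not overlap, although the lowest WT PRO library was close to the highest WT DIFF one. The log2 fold change was -0.44 ± 0.15 in WT (adjusted p = 0.0243) and -0.71 ± 0.18 in p27KO (adjusted p = 0.00811). The WT call was lost without WT PRO replicate 1 (adjusted p = 0.0961) or 2 (0.063) or WT DIFF replicate 2 (0.065) or 3 (0.0711), and the p27KO call without p27KO DIFF replicate 2 (0.0576). Stat2 had log2 fold changes of -0.05 ± 0.14 in WT and -0.04 ± 0.18 in p27KO (adjusted p = 0.761 and 0.86). Irf7, an amplifier of type I interferon production, and Nlrc5, the class I transactivator, did not pass the filter.

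Both RNA sensors of the set that passed the filter were UP in both genotypes. Eif2ak2 (chr17:78852564-78882573), which encodes the double-stranded RNA-dependent kinase PKR, had 38.2, 38.9 and 33.4 CPM in WT PRO and 66.2, 74.4 and 63.4 CPM in WT DIFF, and in p27KO 38.4 and 37.3 CPM and then 73.6 and 68.9 CPM. The genotypes were side by side at each stage, and the change was 1.83-fold in WT (log2 0.88 ± 0.10, adjusted p = 2.76e-05 in edgeR) and 1.85-fold in p27KO (0.89 ± 0.12, adjusted p = 0.000162). Ddx58 (chr4:40203773-40239828), which encodes RIG-I, had 9.02, 7.98 and 10.1 CPM in WT PRO and 13.3, 18.6 and 15.7 CPM in WT DIFF, and in p27KO 10.2 and 8.85 CPM and then 19.1 and 19.2 CPM. Stages did not overlap, with log2 fold changes of 0.81 ± 0.15 in WT (adjusted p = 0.000955) and 0.98 ± 0.18 in p27KO (adjusted p = 0.00139). The related sensor genes Ifih1 (MDA5) and Dhx58 (LGP2) did not pass the filter. All 3 sensors with a promoter window held the ISRE letters.

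In the group of the ISG15 system, PARPs and E3 ligases, 3 of the 5 genes tested were UP in both genotypes: Parp14, Parp9 and Dtx3l. Parp14 (chr16:35832874-35871544), a mono-ADP-ribosyltransferase, had 0.208, 0.638 and 0.922 CPM in WT PRO and 2.44, 4.72 and 4.94 CPM in WT DIFF, and in p27KO 1.16 and 1.23 CPM and then 4.80 and 3.87 CPM. All its WT PRO libraries lay below 1 CPM, so that Parp14 passed the filter only through the groups where it is higher. Its p-values are therefore no separate support for a change. It had the largest positive fold change of the 28, 6.68-fold in WT (log2 2.74 ± 0.43, adjusted p = 0.000307 in edgeR) and 3.57-fold in p27KO (1.83 ± 0.49, adjusted p = 0.00921, and 0.0547 without p27KO PRO replicate 1). Parp9 (chr16:35938470-35972605), which forms a complex with the E3 ligase Dtx3l, had 1.56, 3.83 and 2.54 CPM in WT PRO and 5.65, 6.88 and 6.37 CPM in WT DIFF, and in p27KO 3.84 and 2.61 CPM and then 7.53 and 6.34 CPM. Dtx3l (chr16:35926511-35939151) had 1.62, 2.95 and 3.00 CPM in WT PRO and 4.63, 5.93 and 5.26 CPM in WT DIFF, and in p27KO 4.26 and 3.30 CPM and then 8.01 and 6.66 CPM. In both genes all DIFF libraries were above all PRO libraries. The log2 fold change of Parp9 was 1.23 ± 0.29 in WT (adjusted p = 0.00386) and 1.08 ± 0.35 in p27KO (0.0241), and that of Dtx3l 1.05 ± 0.25 (0.00384) and 0.93 ± 0.29 (0.021). Both p27KO calls were lost without p27KO PRO replicate 2 (adjusted p = 0.137 for Parp9 and 0.113 for Dtx3l) or p27KO DIFF replicate 1 (0.112 and 0.114). These genes are neighbours on opposite strands with overlapping exons, so that their counts may not be independent. Rnf213, a large E3 ligase, had 49.8, 66.5 and 55.5 CPM in WT PRO and 68.0, 84.1 and 66.2 CPM in WT DIFF, where the groups overlapped slightly (log2 fold change 0.34 ± 0.14, adjusted p = 0.0526). It was called UP in WT by DESeq2 (adjusted p = 0.0363), and by edgeR once the replicate number was fitted as a block (adjusted p = 0.0155).

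Of the 11 antiviral effectors 5 passed the filter, and Cmpk2 and Ifi27 were UP in WT. DESeq2 also called Ifitm2 UP in WT (adjusted p = 0.0363), which edgeR did not (adjusted p = 0.0651). Cmpk2 (chr12:26469204-26479837), a mitochondrial nucleotide kinase, had 4.38, 4.11 and 4.70 CPM in WT PRO and 7.23, 8.58 and 6.44 CPM in WT DIFF, and in p27KO 5.78 and 4.52 CPM and then 8.21 and 8.77 CPM. Stages did not overlap. The log2 fold change was 0.75 ± 0.17 in WT (adjusted p = 0.00287 in edgeR) and 0.69 ± 0.20 in p27KO (adjusted p = 0.0147). The p27KO call was lost without p27KO PRO replicate 2 (adjusted p = 0.0903), without p27KO DIFF replicate 2 (0.0700) and with no filter (0.0533). Ifi27 (chr12:103434211-103440239), an interferon-induced mitochondrial protein gene, had 14.0, 15.995 and 7.61 CPM in WT PRO and 37.2, 23.5 and 18.6 CPM in WT DIFF, and in p27KO 8.72 and 14.6 CPM and then 25.7 and 13.5 CPM. The WT stages did not overlap and the p27KO stages did. Its change was 2.09-fold in WT (log2 1.06 ± 0.38, adjusted p = 0.0338) and 0.73 ± 0.47 on the log2 scale in p27KO (adjusted p = 0.213). The WT call was lost without WT PRO replicate 1 (adjusted p = 0.0591) or 3 (0.101), without WT DIFF replicate 1 (0.113) or 2 (0.0558), and with no filter (0.155). Ifit2 (chr19:34550694-34576419), which binds viral RNA, had 31.8, 40.0 and 39.1 CPM in WT PRO and 49.6, 42.6 and 44.9 CPM in WT DIFF, with all 3 DIFF libraries higher. Its log2 fold change of 0.29 ± 0.24 did not pass the test (adjusted p = 0.305), and its p27KO PRO libraries, at 53.7 and 24.0 CPM, lay on either side of the WT range.

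All 3 GBPs tested are GTPases of the response to IFN-γ, and 2 of 3 were DOWN in WT, against the direction of most genes called in the set. Gbp3 (chr3:142560026-142573209) had 31.5, 27.3 and 16.1 CPM in WT PRO and 2.95, 4.60 and 4.03 CPM in WT DIFF, and in p27KO 29.4 and 21.6 CPM and then 4.96 and 4.95 CPM. The lowest PRO library was far above the highest DIFF library. The change was 6.46-fold downward in WT (log2 -2.69 ± 0.27, adjusted p = 1.55e-05 in edgeR) and 5.23-fold downward in p27KO (-2.39 ± 0.32, adjusted p = 0.000189). Gbp7 (chr3:142530342-142550149) had 19.3, 21.9 and 11.9 CPM in WT PRO and 4.68, 14.4 and 7.51 CPM in WT DIFF, where the groups overlapped, and in p27KO 17.8 and 16.97 CPM and then 10.7 and 7.55 CPM. Its log2 fold change was -0.99 ± 0.38 in WT (adjusted p = 0.0444) and -0.95 ± 0.47 in p27KO (adjusted p = 0.113). The WT call of Gbp7 was lost without any one of 8 of the 10 libraries, the exceptions being WT PRO replicate 3 (adjusted p = 0.0272) and WT DIFF replicate 2 (0.00209), with 0.100 and 0.129 without WT PRO replicates 1 and 2, 0.105 and 0.128 without WT DIFF replicates 1 and 3, and 0.0530 to 0.0615 without a p27KO library. Gbp2 had log2 fold changes of -0.12 ± 0.36 in WT and 0.21 ± 0.43 in p27KO, neither called. The sum of the endothelial list given above was also lower in every DIFF library than in every PRO library of the same genotype, and its part in the values of Gbp3 and Gbp7 was not tested. Most of that sum in PRO was Flt1 (mean 24.6 CPM in WT PRO, 1.95 CPM in WT DIFF), while Kdr, another endothelial receptor, went from 1.91 to 7.62 CPM.

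**Figure D3:**
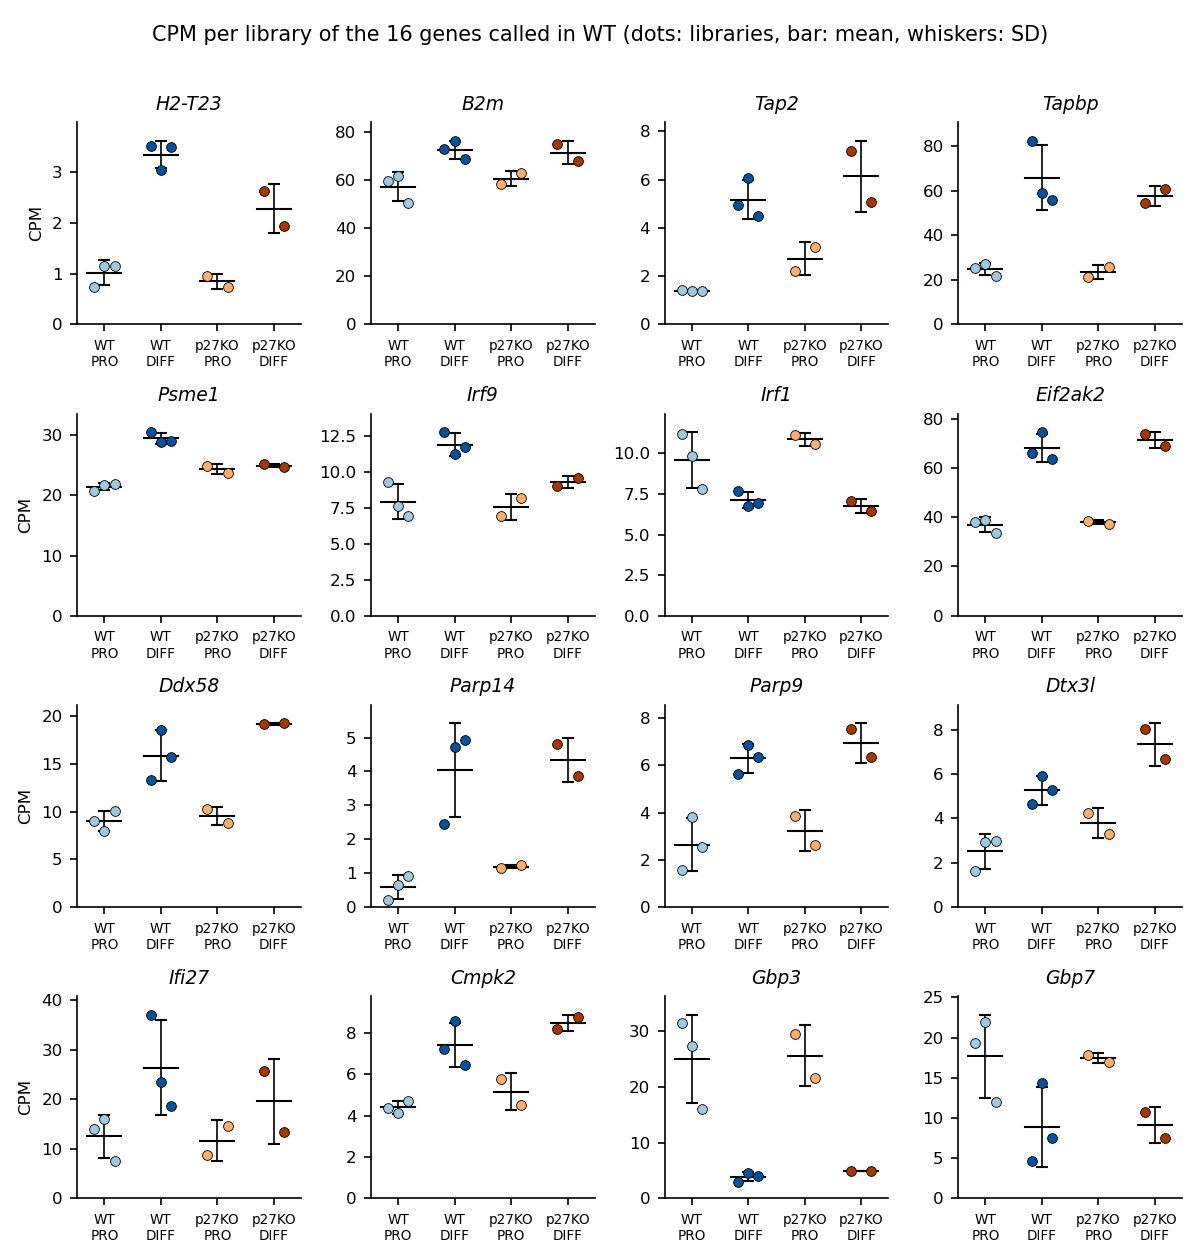
CPM in each of the 10 libraries of the 16 genes called in WT, 1 panel a gene, for PRO and DIFF of WT (3 libraries each) and p27KO (2 each), with a line at the group mean and whiskers of 1 SD. Gbp3 drops from 16.1 or more in PRO to 4.96 or less in DIFF, and Gbp7 is the gene with overlapping WT groups.

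The genes below the filter included some with clear differences between stages. They were singled out after their values were seen, apart from the fit in which genes needed 1 CPM in only 2 libraries, which tested 33 of the 42 genes among 14711. Ifit3, Ifih1 and Usp18 reached 1 CPM in DIFF libraries only, and Dhx58 in PRO libraries only. Each entered this fit through the stage where it is high, so that the p-values below are no separate support for a change. Ifit3 (chr19:34583531-34588731), an antiviral partner of Ifit1 with 2 separate ISRE matches in its promoter, had 0.625, 0.399 and 0.738 CPM in WT PRO and 6.16, 4.93 and 5.18 CPM in WT DIFF, and in p27KO 0.744 and 0.295 CPM and then 4.004 and 2.83 CPM. Every DIFF library was far above every PRO library, and the change was 8.81-fold in WT (log2 3.14 ± 0.35, adjusted p = 3.25e-05 in edgeR) and 6.13-fold in p27KO (2.62 ± 0.43, adjusted p = 0.000629). Its near-copy Ifit3b shares 51.2% of the windows of Ifit3, so that reads could be split between them, and their sum was 0.922 to 1.20 CPM in WT PRO and 10.8 to 13.8 CPM in WT DIFF, and 0.443 to 1.12 CPM and 6.39 to 9.40 CPM in p27KO. Ifih1 had 0.417, 0.758 and 0.830 CPM in WT PRO and 2.04, 2.07 and 2.06 CPM in WT DIFF, and in p27KO 0.578 and 0.984 CPM and then 1.43 and 2.07 CPM. Its log2 fold change was 1.54 ± 0.34 in WT (adjusted p = 0.00276 in edgeR) and 1.09 ± 0.41 in p27KO (0.0465). Usp18, the protease that removes ISG15 and dampens IFNAR signalling, had 0.313, 0.199 and 0.231 CPM in WT PRO and 1.02, 0.787 and 0.712 CPM in WT DIFF, and in p27KO 0.248 and 0.0984 CPM and then 0.833 and 1.44 CPM. It rose by 1.68 ± 0.43 in WT (adjusted p = 0.00603) and 2.57 ± 0.54 in p27KO (0.00269) on the log2 scale, from 2 to 6 counts a library in PRO. In the same fit, Nlrc5 was UP in WT (log2 1.34 ± 0.45, adjusted p = 0.0231) with a p27KO value of -0.16 ± 0.52 (0.815), and Dhx58 was DOWN in WT (-1.79 ± 0.51, adjusted p = 0.0103) with -1.52 ± 0.62 in p27KO (0.0601). Not all genes of the response were detectable in this range: Isg15, which holds 3 overlapping ISRE matches, stayed at 0 to 0.458 CPM over the 10 libraries, and Bst2, a tethering factor of virus particles, had 0 to 7 counts.

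**Figure D4:**
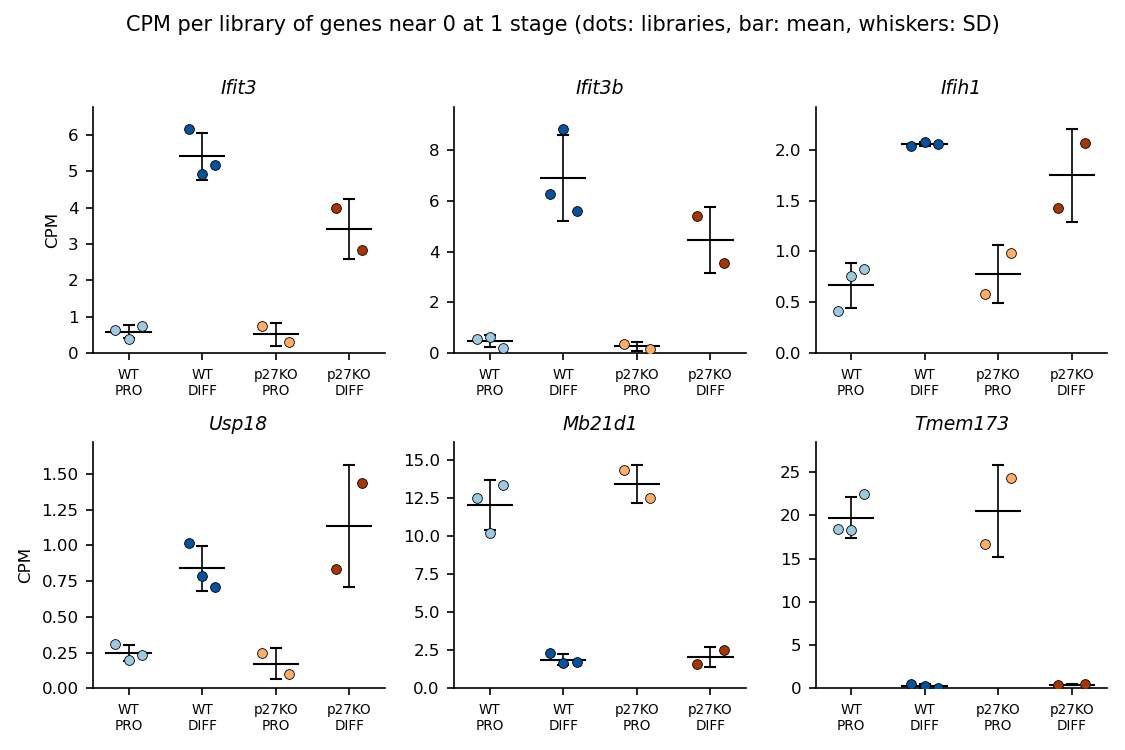
CPM in each library of Ifit3, Ifit3b, Ifih1, Usp18, Mb21d1 and Tmem173, genes with low counts in one stage, for PRO and DIFF of WT and p27KO, with a line at the group mean and whiskers of 1 SD. Ifit3 goes from 0.738 CPM or less to 4.93 or more in WT, whereas Tmem173 goes the other way, from 18.3 CPM or more to 0.509 or less.

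The ISRE letters were found in 5 of the 9 genes UP in WT that have a window, in 2 of 3 genes DOWN, in 4 of 12 genes tested and not called, and in 6 of the 11 that did not pass the filter, groups too small to compare and not tested. All 3 GBPs held them, and neither Tap1 nor Tapbp did. These are matches of letters in a short window, not sites shown to be bound.

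For the genotypes, none of the 28 genes was called in DIFF, in PRO or in the interaction by edgeR. In DIFF 1.91% of all genes were UP in p27KO and 0.124% DOWN, in PRO 0.0156% and 0%, and in the interaction 0.389% and 0%. At an unadjusted p under 0.05 there were 3 of 28 genes in DIFF (Tap1, Psme1 and Ifitm3, beside 14.8% of all genes), 6 in PRO (Tap1, Tap2, Psme1, Rnf213, Ifitm2 and Ifitm3, beside 4.69%) and 2 in the interaction (Psme1 and Psmb10, beside 4.31%). DESeq2 called 2 in DIFF, both UP (beside 4.04% UP and 0.871% DOWN over all genes), 0 in PRO (beside 0.156% in each direction) and 0 in the interaction (beside 1.19% and 0.0311%). The median log2 difference of the 28 was 0.06 in DIFF, 0.11 in PRO and -0.14 in the interaction. In DIFF 6 genes were higher and 6 lower in both p27KO libraries than in all 3 WT libraries (17% and 20.4% of all genes), and in PRO 7 and 0 (6.94% and 10.9%).

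The genes that DESeq2 called in DIFF were Tap1 and Ifitm3, and they are described here because of their values. Tap1 had 11.2 and 10.2 CPM in p27KO DIFF against 5.65, 6.84 and 6.60 CPM in WT DIFF, and 10.5 and 13.1 CPM in p27KO PRO against 8.65, 7.70 and 7.15 CPM in WT PRO. The genotypes did not overlap at either stage. The difference was 1.70-fold in DIFF (log2 0.76 ± 0.16, adjusted p = 0.0502 in edgeR and 0.00525 in DESeq2) and 1.54-fold in PRO (0.63 ± 0.16, adjusted p = 0.684). In edgeR it passed the threshold with DESeq2's size factors (adjusted p = 0.0453), with no filter (0.0395) and without p27KO PRO replicate 1 (0.0462) or 2 (0.0488), and it did not without any one of the other 8 libraries (0.0669 to 0.364). Ifitm3 (chr7:141009586-141010770), which blocks entry of viruses and is highly expressed in stem cells of several tissues, had 48.2 and 35.6 CPM in p27KO DIFF against 4.12, 19.3 and 10.5 CPM in WT DIFF. In PRO it had 25.1 and 33.8 CPM in p27KO against 10.7, 12.6 and 7.75 CPM in WT. The genotypes did not overlap, while the WT DIFF libraries spread widely. The difference was 3.70-fold in DIFF (log2 1.89 ± 0.50, adjusted p = 0.128 in edgeR and 0.0347 in DESeq2) and 2.90-fold in PRO (1.54 ± 0.51, adjusted p = 0.943). Without WT DIFF replicate 2 the value in DIFF was 2.54, with an adjusted p of 0.0249. As genotype and sex cannot be told apart in these libraries, whether the sex of the mice contributed to these differences could not be tested. Ifitm2, next to Ifitm3, had 17.4 and 32.2 CPM in p27KO PRO against 16.6, 15.2 and 15.8 CPM in WT PRO (log2 0.67 ± 0.28, adjusted p = 1), and 48.5% of its windows occur in another gene, 36.1% in Gm45717.

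**Figure D5:**
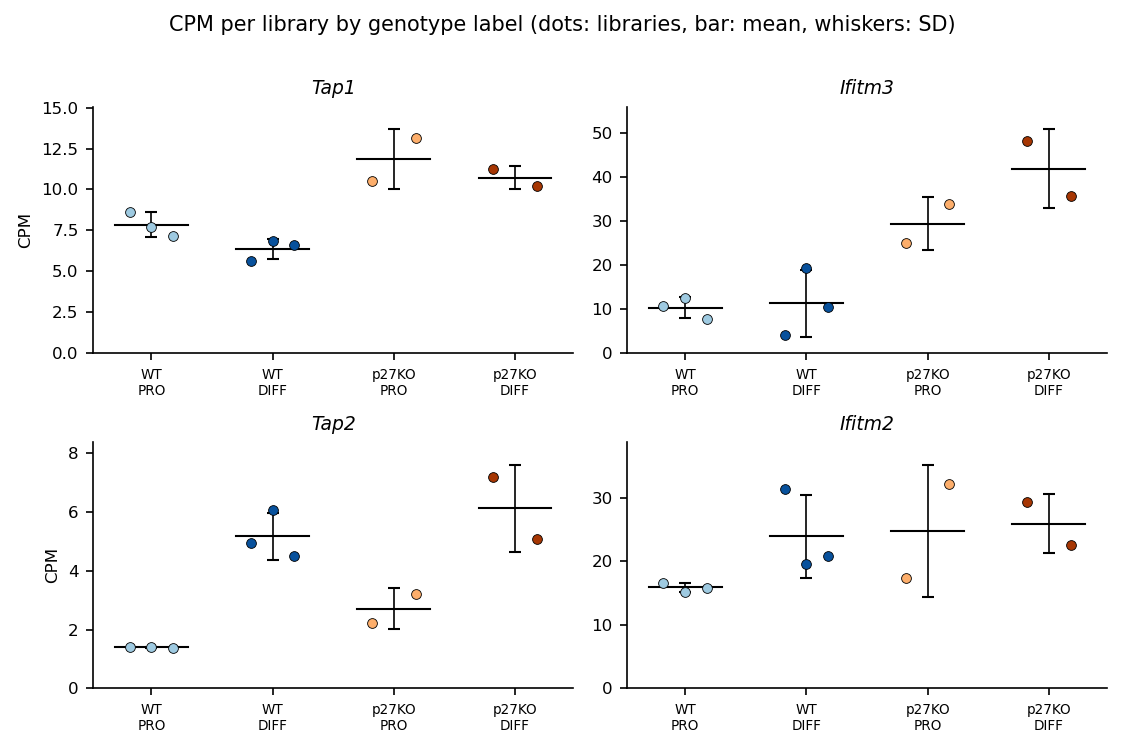
CPM in each library of Tap1, Ifitm3, Tap2 and Ifitm2, for PRO and DIFF of WT (3 libraries each) and p27KO (2 each), with a line at the group mean and whiskers of 1 SD. For Tap1 and Ifitm3 the p27KO libraries lie above the WT libraries at both stages, with 10.2 against 6.84 CPM for the closest Tap1 libraries in DIFF and 35.6 against 19.3 CPM for the closest Ifitm3 ones.

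The ligands of the pathway were at or near 0. Of 10 interferon genes, 8 had 0 counts in all 10 libraries (Ifng, Ifna1, Ifna2, Ifna4, Ifna5, Ifne, Ifnl2 and Ifnl3). A count of 0 allows up to 3 counts, or 0.119 to 0.156 CPM depending on the library, for counting error only. Ifnb1 reached at most 0.0492 CPM and Ifnk 0.159 CPM, each maximum in 1 library of p27KO. Reads were not confined to p27KO, as the 10 genes summed to 0 to 0.0461 CPM in WT PRO and 0 to 0.0414 CPM in WT DIFF.

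Of the 9 receptors and kinases, Ifnlr1, a receptor chain for IFN-λ, was at 0 to 0.238 CPM and did not pass the filter, and of the 8 tested 3 were UP and 4 DOWN in WT, and 3 UP and 2 DOWN in p27KO. For this list and those that follow, the shares over all genes were 33.5% UP and 33.9% DOWN in WT, and 27.5% and 30.2% in p27KO. In WT both IFNAR chains were DOWN, whereas the IFNGR chains were called in opposite directions. Ifnar1 had 109.6 to 135.5 CPM in WT PRO and 87.3 to 93.7 CPM in WT DIFF and had a log2 fold change of -0.49 ± 0.10 in WT (adjusted p = 0.0015 in edgeR), with -0.47 ± 0.12 in p27KO (0.00745). Ifnar2, at lower counts, had -0.29 ± 0.11 in WT (0.0421) and -0.12 ± 0.14 in p27KO (0.455). Ifngr1 rose by 0.68 in WT, with an SE of 0.12 (adjusted p = 0.000863), and by 0.63 ± 0.15 in p27KO (0.00563), from 16.3 to 20.2 CPM in WT PRO to 27.3 to 32.7 CPM in WT DIFF. Its partner Ifngr2 had -0.46 ± 0.11 in WT (0.00374) and -0.30 ± 0.13 in p27KO (0.0777). The kinase gene Jak1 rose by 0.88 ± 0.08 in WT (adjusted p = 7.84e-06), with 95.3 to 110.6 CPM in PRO and 182.8 to 201.0 CPM in DIFF, and Il10rb, a chain shared by receptors of IFN-λ and of interleukins, had -1.40 ± 0.20 (0.00015).

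Downstream of the receptors, of 7 further factors tested 3 were UP in WT and none DOWN, led by Rfx5 (0.73 ± 0.11, adjusted p = 0.000298 in edgeR) and Rfxank (0.68 ± 0.10, 0.000161), subunits of the RFX complex that binds promoters of MHC genes. Both were also UP in p27KO (0.89 ± 0.14 and 0.81 ± 0.12). Of 5 negative regulators tested, Pias1, a SUMO ligase that inhibits the pathway, was UP in WT (0.42 ± 0.07, adjusted p = 0.000411) and not called in p27KO (0.18 ± 0.08, 0.0935).

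In nucleic acid sensing, 2 of 11 genes tested were UP and 3 DOWN in WT, with a sensor of DNA among the latter. Mb21d1, which encodes the cytosolic DNA sensor cGAS, had 12.5, 10.2 and 13.4 CPM in WT PRO and 2.29, 1.66 and 1.70 CPM in WT DIFF, and in p27KO 14.3 and 12.5 CPM and then 1.59 and 2.52 CPM. It fell by 2.69 ± 0.21 in WT (adjusted p = 3.28e-06 in edgeR) and by 2.74 ± 0.26 in p27KO (2.19e-05) on the log2 scale. Tmem173, which encodes its adaptor STING, was singled out after its values were seen and did not pass the filter because all 5 DIFF libraries were below 1 CPM. It had 18.4, 18.3 and 22.5 CPM in WT PRO and 0.509, 0.249 and 0.0791 CPM in WT DIFF, and in p27KO 16.7 and 24.3 CPM and then 0.396 and 0.450 CPM. Ikbke, a kinase upstream of IRF3, rose by 1.84 ± 0.33 in WT (adjusted p = 0.000722) and by 1.46 ± 0.41 in p27KO (0.012).

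Of 40 further interferon-stimulated genes, 11 passed the filter, with 7 UP and none DOWN in WT, and 5 UP and 1 DOWN in p27KO. Beside these 63.6% UP in WT and 45.5% UP in p27KO, the shares over all genes were 33.5% and 27.5%. Gbp6 had 0 to 0.878 CPM in WT PRO and 3.40 to 7.02 CPM in WT DIFF, the opposite direction to Gbp3 (log2 fold change 3.48 ± 0.65, adjusted p = 0.00108 in edgeR). In p27KO its value was 1.51 ± 0.72 (adjusted p = 0.101), with 1.24 and 1.03 CPM in PRO. As WT PRO lay below 1 CPM throughout, Gbp6 passed the filter only through the groups where it is higher, and its WT p-value is no separate support for a change.

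Among 8 further genes of antigen presentation tested, 3 were UP and 3 DOWN in WT. Tapbpl, which encodes the tapasin-related peptide editor TAPBPR, rose with Tapbp, from 0.922 to 1.51 CPM in WT PRO to 3.87 to 4.43 CPM in WT DIFF (log2 1.76 ± 0.22, adjusted p = 5.81e-05 in edgeR), and by 1.51 ± 0.26 in p27KO (0.00084). Pdia3, a disulphide isomerase of the peptide-loading complex and of glycoprotein folding in general, fell by 0.71 ± 0.08 in WT (2.34e-05), and the class I gene H2-Q4 had -0.71 ± 0.25 (0.0291). The 4 constitutive proteasome counterparts were all DOWN in both genotypes. Psme3, the nuclear activator PA28γ, had the largest change of them, with -0.96 ± 0.07 in WT (adjusted p = 1.6e-06), followed by Psmb6 with -0.69 ± 0.12 (0.000562). Pooled over these further lists, 54 genes were tested, with 35.2% UP and 25.9% DOWN in WT, and 25.9% UP and 20.4% DOWN in p27KO. None of the genes on these lists was called between the genotypes or in the interaction by edgeR. An unadjusted p under 0.05 in edgeR was reached by 7 of the 54 in DIFF, 3 in PRO and 2 in the interaction, beside 14.8%, 4.69% and 4.31% of all genes. DESeq2 called 1 of the 54 in DIFF (beside 4.04% UP and 0.871% DOWN over all genes) and 0 in PRO and in the interaction.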

How the data were processed

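The data were 10 RNA-seq libraries of NSC/NPC cultures, 3 WT and 2 p27KO at each of 2 stages. The authors aligned reads with STAR to the Ensembl mouse transcriptome (GRCm38) and estimated the abundance of genes with RSEM, with versions not given in the sources used here. They deposited estimated counts per gene, as whole numbers and not normalized. cDNA had been amplified before library preparation. Of 48795 Ensembl identifiers, 48349 were matched to a symbol through GENCODE M21. The ATAC-seq data of the study were not analysed here. The genotype label gives p27KO for 4 libraries whose free-text description names WT, and the genotype label was used. The labels and the methods give 3 DIV for the neurospheres, whereas the study's results text gives an older culture.

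The members and all gene lists were chosen with earlier results of these data known. Genes with over 3 libraries below 1 CPM were removed, and the other 12859 were fitted in edgeR 4.0.16 (limma 3.58.1, R 4.3.3) as 4 groups with TMM scaling and a robust quasi-likelihood model, two-sided, with Benjamini-Hochberg adjustment over all 12859 and a threshold of 0.05. Every adjusted p in the text without another name is from edgeR, and every SE is the absolute log2 fold change divided by the square root of F. The CPM printed are not TMM-scaled, and TPM use union exon lengths. Scripts were tested on simulated data. Figures were drawn with Python 3.11.15, pandas 2.3.3 and matplotlib 3.10.9. Totals of 19190068 to 25291674 counts limit precision for genes under 1 CPM, while for the rest the spread between libraries does. No pair of libraries of a group was a copy of another (chi-square per gene 14.8 to 64.5).

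Genes were named by rule: those called in a genotype comparison or the interaction (none), up to 3 called genes with the largest change in each role, the 4 genes without a call with the highest mean CPM (H2-K1, Psme2, Rnf213 and Ifit2), the receptor genes, and the 2 called genes with the largest WT change of each further list. All others named complete a group or were chosen after their values were seen, also where this is not said beside them, as for Flt1, Kdr, Psmb9, Rsad2, Oas3 and Slfn2. Some values that this rule covers are not reported here.

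Replicate numbers were checked by correlating, over genes, the deviations from group means in PRO and DIFF. In WT the correlation was 0.248, 0.301 and 0.395 where the number matched and -0.221 to -0.0874 where it did not, so that the WT numbers appear to mark pairs. The main fit nevertheless left the replicate number out, and its p-values are not paired. Only the replicate blocks, given as alternatives, fitted the number. In p27KO the same numbers gave -0.138. Alternatives were DESeq2 1.42.0, its size factors, other filters, fits of the compared groups only, a minimum change, replicate blocks and leaving out each library.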

Additional observations from a re-analysis of the deposited data

How the results depend on the processing

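The counts of genes called kept within 1.5 times under most alternatives, with 13 to 17 UP and 2 to 4 DOWN in WT and 9 to 12 UP and 2 to 3 DOWN in p27KO, apart from the exceptions given here, for which the cause was not tested unless named. A minimum absolute log2 fold change of 1 left 7 UP and 1 DOWN in WT and 5 UP and 1 DOWN in p27KO, by its construction. With genes kept at 1 CPM or more in at least 4 libraries, 31 of the 42 were tested and the WT median was 0.41. In p27KO against WT DIFF, 1 gene was UP with DESeq2's size factors, 2 with DESeq2 and 1 with no filter. Without 1 library at a time, WT had 12 to 14 UP, 1 to 3 DOWN and a median of 0.31 to 0.42, p27KO had 6 to 9 UP, 1 to 3 DOWN and a median of 0.20 to 0.36, and the interaction had 0 calls and a median of -0.22 to -0.068. Likewise DIFF had 0 to 1 UP, 0 DOWN and a median of -0.068 to 0.15 between genotypes, and PRO 0 calls and a median of 0.10 to 0.20. With the replicate block there were 14 UP and 3 DOWN in WT, 9 UP and 2 DOWN in p27KO and 0 calls elsewhere. The block added Rnf213 in WT and changed no other call among the genes named. With the p27KO numbers crossed, a choice made after seeing the data, 10 were UP and 2 DOWN in p27KO and the interaction had 0 calls. Of 569 values for 31 named results, 519 kept their side of the threshold, 43 lost it, 7 gained it and 0 reversed. Depth limited the 7 genes below 1 CPM in every library, for which no change was detectable.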

Other observations

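Some values of the set stand outside the comparisons above. Psmb9, an inducible proteasome subunit gene that overlaps Tap1, had 0.439 to 0.712 CPM in the 6 WT libraries and 0.661 to 1.15 CPM in the 4 p27KO libraries. Rsad2, which encodes the antiviral enzyme viperin, had 0.834, 0.638 and 0.922 CPM in WT PRO and 1.48, 0.414 and 0.356 CPM in WT DIFF, a spread in which 1 DIFF library lies above all others and the rest below PRO. Oas3 and Slfn2 had 0 counts in all 10 libraries. Samd9l, an interferon-stimulated gene on none of the member groups, had 1.93, 6.10 and 2.49 CPM in WT PRO and 8.86, 20.4 and 9.73 CPM in WT DIFF, where replicate 2 was the highest at both stages, as it was for Parp9 and Rnf213. It was singled out after its values were seen, with a log2 fold change of 1.87 ± 0.47 in WT (adjusted p = 0.00597 in edgeR) and 1.46 ± 0.55 in p27KO (adjusted p = 0.0477). Ifitm3 reached 132.8 TPM in p27KO PRO and 201.6 TPM in p27KO DIFF as means of 2 libraries, which placed it next to B2m among the 42 genes.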
